A study of Mus musculus with 8 samples.

Results

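The transcripts described here are those of the BMP and TGF-beta signalling genes in GFP-positive cells of the mouse kidney rudiment at E11.5. The set of 37 genes holds 9 BMP ligands, 6 TGF-beta and activin ligands, 7 secreted modulators, 8 receptors and 7 targets and SMADs. Members were found by gene name: every probe of that name present on both array designs was taken, which gave 50 probes of the 39429 in common, and 37 of the 30139 genes. Of these, 35 were bright enough to be tested. The receptor-like antagonist gene Bambi was well above background on 0 of 8 arrays, and Inhbb, which encodes an activin subunit, on 1, and neither was tested. The study sorted GFP-positive cells from rudiments of NMRI embryos and measured their total RNA on 8 arrays, each hybridised with RNA of some 100000 pooled cells from male and female embryos. Control pools (n = 3) had the genotype Tbx18(GFP/+), and Tbx18 null pools (n = 3) were Tbx18(GFP/GFP). Tbx18VP16 pools (n = 2) were Tbx18(cre/+);Hprt(Tbx18VP16), with the construct CAG:Tbx18VP16-GFP at Hprt. Every embryo, controls included, thus carried at least 1 altered allele of Tbx18. In control and null pools GFP came from the Tbx18 locus, and in Tbx18VP16 pools from the construct at Hprt, so the sorted cells were marked in different ways. Every Tbx18VP16 array was of another design, slide and scan than the other arrays, so genotype, marking and array batch cannot be told apart in any comparison with Tbx18VP16.

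BMP and TGF-beta ligands are secreted dimers that bring type II and type I receptor kinases together, and the type I receptor then phosphorylates SMAD proteins, which enter the nucleus with SMAD4. Extracellular antagonists such as noggin, gremlin, chordin and follistatin bind ligands before they reach a receptor, while Id genes and the inhibitory SMAD genes are common transcriptional targets of BMP signalling. In the developing urinary tract, Bmp4 from the mesenchyme around the ureter is known to restrain ectopic budding and to promote smooth muscle formation, Grem1 allows the bud to grow, and Bmp7 keeps nephron progenitors alive. Tbx18 encodes a T-box factor of the mesenchyme around the ureter that acts as a repressor of transcription, and VP16 is a viral activation domain used to turn a DNA-binding protein into an activator.

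Upstream sequences are shown for Bmp5, Bmper and Gdf7, whose levels passed a test in the comparisons below, and for 2 BMP target genes whose window holds letters bound by SMADs of the BMP branch. Each is the 250 bases before the start in RefSeq's GRCm38.p6, 5′ to 3′ on the gene's strand. The windows are chr9:75775115-75775364 (plus strand) for Bmp5, chr9:23222826-23223075 (plus strand) for Bmper, chr12:8301955-8302204 (minus strand) for Gdf7, chr12:25096093-25096342 (minus strand) for Id2 and chr13:48260866-48261115 (plus strand) for Id4. Capitals mark GGCGCC.
Bmp5: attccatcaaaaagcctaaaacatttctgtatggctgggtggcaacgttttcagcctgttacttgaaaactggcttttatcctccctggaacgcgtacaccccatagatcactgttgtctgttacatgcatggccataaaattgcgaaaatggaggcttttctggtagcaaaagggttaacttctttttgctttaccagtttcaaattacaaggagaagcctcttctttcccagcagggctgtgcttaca
Bmper: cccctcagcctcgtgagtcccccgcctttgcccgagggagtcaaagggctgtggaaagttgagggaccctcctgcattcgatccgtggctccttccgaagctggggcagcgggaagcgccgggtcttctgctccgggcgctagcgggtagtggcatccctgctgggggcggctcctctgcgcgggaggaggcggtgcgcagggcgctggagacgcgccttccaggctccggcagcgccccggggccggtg
Gdf7: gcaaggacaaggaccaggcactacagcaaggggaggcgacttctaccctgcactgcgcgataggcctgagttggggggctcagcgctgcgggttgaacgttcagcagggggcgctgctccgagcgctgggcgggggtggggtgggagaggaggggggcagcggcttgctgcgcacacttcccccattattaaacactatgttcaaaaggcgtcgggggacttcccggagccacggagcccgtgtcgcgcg
Id2: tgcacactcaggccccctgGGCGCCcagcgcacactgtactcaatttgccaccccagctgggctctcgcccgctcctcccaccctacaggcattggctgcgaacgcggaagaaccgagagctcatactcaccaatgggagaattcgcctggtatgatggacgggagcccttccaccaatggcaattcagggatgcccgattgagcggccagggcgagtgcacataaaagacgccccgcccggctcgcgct
Id4: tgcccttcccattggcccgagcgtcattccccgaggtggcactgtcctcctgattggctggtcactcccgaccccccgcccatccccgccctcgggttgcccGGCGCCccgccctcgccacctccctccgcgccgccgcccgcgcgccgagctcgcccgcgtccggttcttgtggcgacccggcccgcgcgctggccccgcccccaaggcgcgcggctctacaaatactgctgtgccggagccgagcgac
RefSeq's table held 28 windows for 25 of the 37 genes. The T-box core GGTGTGA, searched on both strands, was in 3.33% of the 32851 mouse windows and in 0 of the 28 windows of the members. The letters GGCGCC, bound by SMADs of the BMP branch and equal to their own reverse complement, were in 9.59% of all windows and in 8 windows of the members, those of Bmpr1a, Bmpr2, Chrd, Grem1, Id2, Id4, Smad9 and Tgfbr1. In Id2 they stood 231 to 226 bases before the start and in Id4 148 to 143 bases before it. The SMAD palindrome GTCTAGAC was in 0.167% of all windows and in none of the members'. The members' windows were richer in G and C than the rest, with a median of 67.4% against 52.4%. Among windows with at least 67.4% G and C, GGCGCC was in 35.3% of all 4228 and in 6 of the members' 14. A match is a description of the letters in the window, and a window without one says nothing about binding elsewhere.

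A level here is the log2 signal of a probe after the 75th percentile of its array was subtracted, and levels were compared between pools within a probe only. Between 60.2% and 66.1% of probes were well above background per array, and no spot was saturated. With 2 or 3 arrays a group, precision was limited. The labels do not say whether the pools came from separate litters, so p-values measure the spread between these pools. The Tbx18 probe had levels of -0.02, 1.20 and 1.04 in control, -2.40, -1.34 and -2.35 in null and 1.34 and 1.06 in Tbx18VP16 pools. The null pools were lower than every control (-2.77 ± 0.43 (SE), n = 3 and 3, adjusted p = 0.118, and 0.0316 with the pair as a block), in the direction of the label. Foxd1 and Eya1, genes of the kidney mesenchyme, were well above background on every array. The summed signal of 9 ureteric mesenchyme genes, Tbx18 among them, was 3.93 to 4.23 in control pools. It was 3.69 to 3.85 in null and 4.41 and 4.31 in Tbx18VP16 pools. Of the 9, 4 had higher means in null than in control pools (median -0.26, 0 called). In Tbx18VP16 pools 6 had higher means than in control pools (median 0.28, 1 called). Markers of other cell types of the rudiment differed between pools as well. The summed signal of 9 nephron progenitor genes was 4.84 to 5.34 in control, 5.59 to 5.87 in null and 5.81 and 5.91 in Tbx18VP16 pools. In null pools 8 of the 9 had higher means than in control, with a median difference of 1.66 (1.14, 1.95 and 1.87 in pairs 1, 2 and 3). Among them was Six2, at mean levels of 0.40 in control and 2.93 in null, although 0 of 9 passed the test without the pair. In Tbx18VP16 pools 8 of the 9 had higher means than in control (median 0.59, 2 called). Against null, 4 of the 9 were higher in Tbx18VP16 pools (median -0.65, 0 called), where Six2 had a mean level of 1. For 8 renal stroma genes the summed signal was 6.74 to 6.99 in control, 6.11 to 6.55 in null and 6.39 and 6.53 in Tbx18VP16 pools, and 1 of 8 had a higher mean in null pools (median -0.48, and -0.42, -0.42 and -0.74 in the pairs, 0 of 8 called). The summed signal of 8 erythroid genes was 2.67 to 4.91 in control, 2.45, 4.68 and 9.08 in null and 1.5 and 3 in Tbx18VP16 pools. For 8 endothelial genes it was 0.59 to 1.29 in control pools, 1.24 and 1.42 in null pools 1 and 2, 3.33 in null pool 3 and -0.14 and -0.03 in Tbx18VP16 pools, and for 10 genes of the ureteric epithelium it was 1.34 to 1.98 in control, 1.73, 2.58 and 3.74 in null and 2.04 and 2.26 in Tbx18VP16 pools. Of the megakaryocyte and platelet genes, 6 of 6 rose in Tbx18VP16 pools, to a summed signal of 2.12 and 3.1 against -4.13 to -3.34 in control and -3.68, -1.11 and 0.64 in null pools, and Ppbp, Gp9 and Gp1ba did not stand well above background in any control pool. The part of these cells in the results below was not tested. In pooled cells, fewer cells of a type and less RNA per cell cannot be told apart.

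The comparison of null with control pools asks which members differ when Tbx18 is lost. Bmp5 was about 3-fold lower and Gdf6 about 2-fold higher in null pools, and these were the members that passed the test once the pairing of pools was in the fit. Without the pair, 0 of 35 members passed (background 0% of 19722 genes), and 6 had an unadjusted p under 0.05, against a background of 4.83%. With the pair as a block, 2 of 35 passed, against a background of 0.958%. The median difference of the 35 members was -0.24, against 0.01 over all genes tested. Groups did not overlap for 8 members (background 7.75%), of which 6 were lower and 2 higher in the null, and 2 of those 8 differed at least 2-fold (background 2.47%). The blocked count was 0 without pair 1, 0 without pair 2 and 5 without pair 3, where Bmp7, Bmper and Chrdl1 joined Bmp5 and Gdf6. Over all genes it was 189 with every pair, 0 without pair 1, 0 without pair 2 and 737 without pair 3. The nephron progenitor and stroma markers given above differed between null and control in every pair too, and their part in these members' differences was not tested.

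The comparison of Tbx18VP16 with control pools asks which members differ under the activating fusion. Gdf6, Inhba and Tgfbr3 rose and Gdf7 and Bmper fell, so 5 of 35 members passed, against a background of 5.34% of 20612 genes (2.04% higher and 3.3% lower), and 13 had an unadjusted p under 0.05 (background 22.8%). The members' median difference was -0.05 against -0.14 over all genes. Groups did not overlap for 20 members (background 47.6%), and 8 of these differed at least 2-fold (background 16.7%). Gdf6 and Inhba were still called without any 1 control or null pool. Bmper also passed without null pool 1, 2 or 3, for totals of 10, 3 and 3 members, but not without any control pool, where the total was 2 each time. Without either Tbx18VP16 pool 0 members passed, in a fit that assumes the remaining pool to vary like the other groups. The Tbx18VP16 design held 177043 non-control spots, against 157716 on the other arrays. With all its spots, the 75th percentile of signal was 1547.5 and 1540.1 on the Tbx18VP16 arrays, against 2124.9 and 2128.9 over the common probes. On the other arrays it hardly changed. Scaled to the 75th percentile of all spots, 6 members passed and all 6 were higher, since that scaling raised the median of all genes by 0.46 and moved the share of called genes that were higher from 38.2% to 81.9%. Under it Bmp2, Bmp5, Tgfb2, Chrd, Fstl1, Tgfbr2, Id1, Id2 and Smad6, all with small differences from control, changed sign. Quantile normalisation moved that median by 0.12 and the share to 47.3%, and the authors' value table by 0.12 and to 49.9%.

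Against null pools, Tbx18VP16 pools had higher levels of Bmp5, Gdf6, Inhba, Tgfbr3 and Smad9. These were 5 of 35 members, all higher, against a background of 3.67% of 20612 genes called, 1.17% higher and 2.5% lower. An unadjusted p under 0.05 was found for 7 members (background 22%). The median was 0.24 for the members and -0.15 for all genes. Groups did not overlap for 18 members (background 48.1%), of which 8 differed at least 2-fold, all higher in Tbx18VP16 (background 15.6% in either direction). The count was 4 without null pool 1, 0 without null pool 2 or 3, 6, 2 and 5 without control pools 1, 2 and 3, and 0 without either Tbx18VP16 pool. With the scaling to all spots, the median of all genes moved by 0.46 here too, 81.4% in place of 32.0% of called genes were higher, and 7 members passed. Bmp7, Gdf7, Grem1, Chrd, Fst, Bmper, Tgfbr2, Id1 and Id4 changed sign. Under quantile normalisation the median moved by 0.14 and 46.1% of calls were higher, and in the authors' value table by 0.14 and 49.8%. The Tbx18VP16 comparisons share their pools with each other and their control or null pools with the comparison of null and control, so their values stand side by side below and are not independent.

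**Figure D1:**
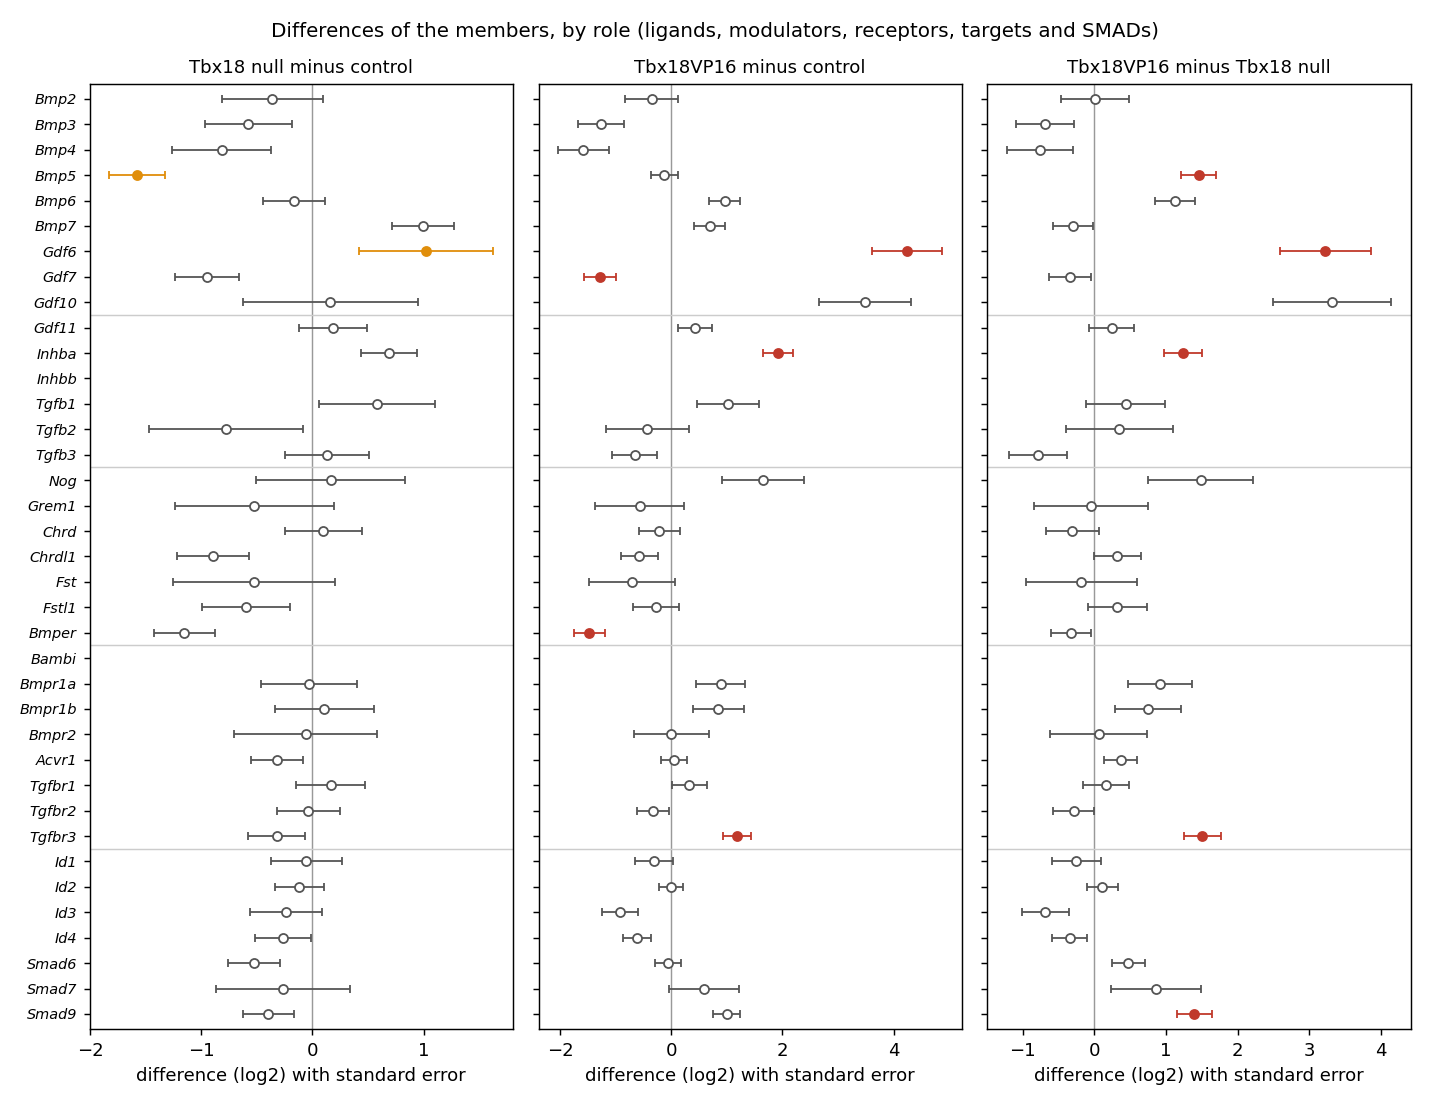
Difference in log2 level with its standard error (bars) for each tested member, in rows grouped by role, for the 3 comparisons of control (n = 3), Tbx18 null (n = 3) and Tbx18VP16 (n = 2) pools. Red filled points have an adjusted p under 0.05, orange filled points only with the pair as a block, and open points in neither fit. The horizontal range differs between panels, and Gdf6 and Gdf10 stand farthest to the right in both comparisons with Tbx18VP16.

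Among the BMP ligands, Bmp5 was at -1.70, -1.16 and -1.51 in control, -3.23, -2.86 and -3.02 in null and -1.57 and -1.60 in Tbx18VP16 pools. Null pools were the low ones, below every control and every Tbx18VP16 pool, while Tbx18VP16 pools lay within the range of the controls. Bmp5 encodes a BMP of the same subgroup as Bmp7, and its probe lies on the plus strand of chromosome 9, from 75746444 to 75746503 in mm9. The null difference was -1.58 ± 0.25 (SE), 2.99-fold lower, and its adjusted p was 0.119, or 0.0300 in the fit with pairs. It was -1.52, -1.70 and -1.51 in pairs 1, 2 and 3, and thus of similar size on both slides. The adjusted p was 0.206 with the slide as a block, and over 20 alternatives the difference ran from -1.70 to -1.23 and the adjusted p from 0.00522 to 1. Tbx18VP16 exceeded null by 1.46 ± 0.25 (SE; adjusted p = 0.0249, called in 12 of 16 alternatives) and differed from control by -0.12 ± 0.25 (adjusted p = 0.798). The upstream window of Bmp5 printed above, at 42.8% G and C the poorest of those shown, holds none of the searched motifs.

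Gdf6, a ligand gene of the BMP family known for its roles in joints and skull, was at -6.45, -4.73 and -4.98 in control, -5.45, -3.78 and -3.86 in null and -1.19 and -1.10 in Tbx18VP16 pools. Both Tbx18VP16 pools stood well above all others, and control and null overlapped because pool 1 was low in each. Its probe is on the plus strand of chromosome 4, from 9789396 to 9789455 in mm9, and was well above background on 2 of 3 control arrays. The rise over control was 4.24 ± 0.63 (SE), 18.9-fold, with an adjusted p of 0.0121, and that over null 3.22 ± 0.63, 9.33-fold (adjusted p = 0.0377). Under the normexp background correction these were 2.67 and 2.24, with adjusted p values of 0.000614 and 0.00320. Within pairs, the null exceeded control by 1, 0.95 and 1.12. That difference of 1.02 ± 0.61 had an adjusted p of 1 without the pair and 0.0483 with it, and over 20 alternatives it ran from 0.43 to 1.56 with adjusted p values from 0.0183 to 1.

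Gdf7, whose product is a close relative of that of Gdf6, was at -4.12, -4.26 and -3.82 in control, -4.55, -5.29 and -5.19 in null and -5.28 and -5.41 in Tbx18VP16 pools. Controls were the high group, with no overlap with either of the others. In Tbx18VP16 pools it fell by 1.28 ± 0.29 (SE), 2.43-fold, with an adjusted p of 0.0449, in 4 of 16 alternatives (range 0.0174 to 0.362). In null pools the difference was -0.94 ± 0.29 (adjusted p = 0.592, blocked 0.153), and -0.43, -1.03 and -1.37 in the 3 pairs. The probe covers positions 8304980 to 8305039 of chromosome 12 (mm9, minus strand). A second probe, well above background on 1 array, gave 0.85 for null and -0.47 for Tbx18VP16 against control, so the probes disagree in direction for the null.

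Gdf10, which encodes a BMP3-like ligand, showed -7.21, -5.08 and -4.68 in control, -6.76, -4.67 and -5.05 in null and -2.34 and -2.02 in Tbx18VP16 pools. The Tbx18VP16 pools stood above all others, and the first pools of control and null were far below their partners. The differences of 3.48 ± 0.82 (SE) from control and 3.32 ± 0.82 from null had adjusted p values of 0.0516 and 0.0679. With normexp they were 1.80 and 1.73, with adjusted p values of 0.00269 and 0.00647. Over 16 alternatives each, Gdf10 was called in 6 and 3.

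Bmp4, the ligand of the mesenchyme around the ureter, was at 6, 5.08 and 5.26 in control, 5.52, 4.07 and 4.30 in null and 3.87 on both Tbx18VP16 arrays. Tbx18VP16 pools were below every other pool, and control and null overlapped through null pool 1. The Tbx18VP16 difference of -1.58 ± 0.46 (SE) had an adjusted p of 0.0930 and became -2.61, with an adjusted p of 0.0256, as the mean of both probes of the gene. In null pools it was -0.82 ± 0.45 (adjusted p = 1, blocked 0.118), with -0.48, -1.01 and -0.96 in the pairs. The second probe, well above background on 3 arrays, was lower in both altered genotypes too, by -1.38 and -3.64.

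Bmp3, which encodes a ligand that can oppose other BMPs, was at -5.36, -5.57 and -6.17 in control, -5.53, -6.55 and -6.75 in null and -6.87 and -7.05 in Tbx18VP16 pools. It was well above background on all 3 control arrays, 1 null array and no Tbx18VP16 array. Against control it was at least 1.71-fold lower in Tbx18VP16 pools (adjusted p = 0.119), from the bright group's mean over the dim group's signal or the lowest signal well above background, whichever was higher. Bmp6, a ligand best known for iron regulation in the liver, was at -3.35, -3.34 and -3.53 in control, -3.96, -3.11 and -3.65 in null and -2.49 and -2.40 in Tbx18VP16 pools. Both Tbx18VP16 pools were higher than the rest, by 0.96 ± 0.28 over control and 1.13 ± 0.28 over null (adjusted p = 0.0933 and 0.0685). Of the other BMP ligands, Bmp7 was higher in every null pool than in any control pool (0.99 ± 0.28 (SE), adjusted p = 0.490, blocked 0.115), and Bmp2, with a difference of -0.36 ± 0.45, overlapped.

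**Figure D2:**
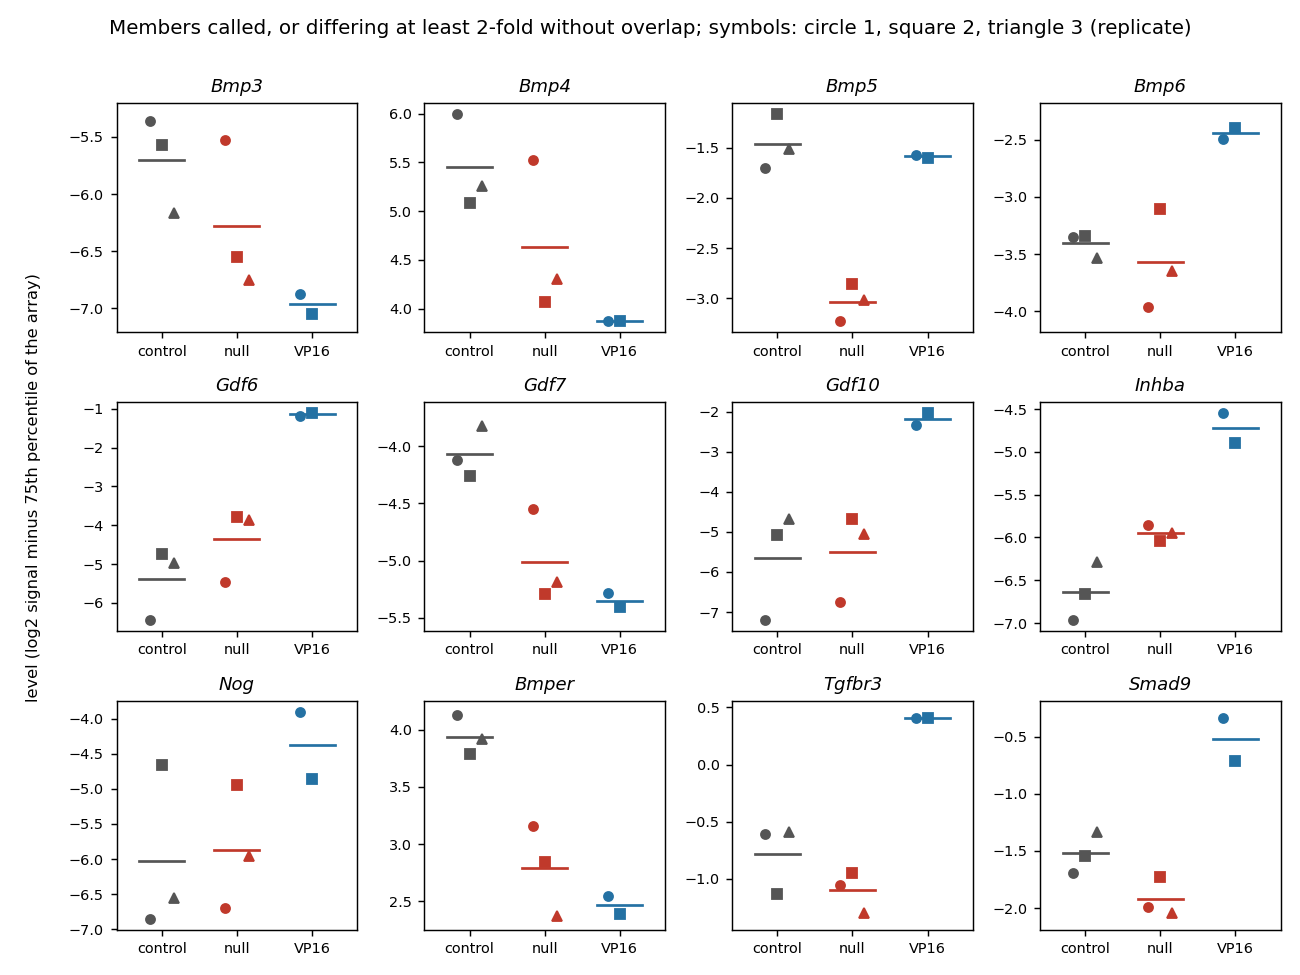
Level on each array (log2 signal minus the array's 75th percentile) of the 12 members that had an adjusted p under 0.05 or differed at least 2-fold without overlap in some comparison, including those with the pair as a block. Points are pools of control, Tbx18 null and Tbx18VP16, with the replicate number given by the symbol, lines are group means, and each panel has its own vertical range. Null pools of Bmp5 are below all other pools, and Tbx18VP16 pools of Gdf6, Gdf10 and Tgfbr3 are above all others.

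Of the TGF-beta and activin ligands, Inhba differed most. It encodes the beta A subunit of activin A and inhibin, and was at -6.97, -6.66 and -6.29 in control, -5.86, -6.04 and -5.95 in null and -4.54 and -4.90 in Tbx18VP16 pools. The 3 groups lay in that order without overlap. The probe, on the plus strand of chromosome 13 from 16118634 to 16118693 in mm9, was dim, and well above background on 1 control, 2 null and 2 Tbx18VP16 arrays. Inhba rose by 1.92 ± 0.27 (SE), 3.79-fold, over control (adjusted p = 0.00946) and by 1.24 ± 0.27, 2.35-fold, over null (adjusted p = 0.0484). Both calls ended under normexp, where the differences were 0.25 and 0.07 with adjusted p values of 0.588 and 0.892. In null pools it was 0.69 ± 0.26 above control (adjusted p = 0.878, blocked 0.213).

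Tgfb2, the TGF-beta gene whose loss is known to cause kidney and urinary tract defects in mice, was at 3.46, 2.86 and 2.38 in control, 3.38, 2.43 and 0.56 in null and 2.84 and 2.10 in Tbx18VP16 pools. Null pool 3 was far below the rest, and all groups overlapped (null -0.78 ± 0.69 (SE), adjusted p = 1). The other Tgfb2 probe gave -0.31 for null and, with the opposite sign, 0.27 for Tbx18VP16 against control. Tgfb3 was at 2.02, 1.42 and 1.99 in control, 2.69, 1.64 and 1.49 in null and 0.90 and 1.40 in Tbx18VP16 pools, with Tbx18VP16 pools below the others (-0.65 ± 0.41 against control, adjusted p = 0.377). Tgfb1, a ligand whose protein platelets store in quantity, had a difference of 1.02 ± 0.55 between Tbx18VP16 and control and of 0.58 ± 0.52 between null and control, with overlap in both (adjusted p = 0.317 and 1). The part of the cells with the platelet markers given above in these RNA levels was not tested. Gdf11, a ligand needed for the kidney to form, differed by 0.19 ± 0.31 in null and 0.43 ± 0.31 in Tbx18VP16 pools (adjusted p = 1 and 0.453).

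Among the secreted modulators, Bmper was lower in both altered genotypes. It encodes a chordin-family protein with crossveinless motifs that binds BMPs and can inhibit or promote their signalling. Its levels were 4.13, 3.79 and 3.92 in control, 3.16, 2.84 and 2.37 in null and 2.55 and 2.39 in Tbx18VP16 pools. All altered pools lay below all controls, and null and Tbx18VP16 overlapped. Bmper fell by 1.47 ± 0.28 (SE), 2.78-fold, in Tbx18VP16 pools, with an adjusted p of 0.0258 and in 10 of 16 alternatives (range 0.0137 to 0.287). Scaled to all spots, the difference was -1.01 and its adjusted p 0.0658. In null pools the difference was -1.15 ± 0.28, with an adjusted p of 0.364 and a blocked one of 0.0721, and it was -0.96, -0.94 and -1.55 in the pairs. The probe is on the plus strand of chromosome 9, from 23289301 to 23289360 in mm9.

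Nog, the gene of the BMP antagonist noggin, was at -6.86, -4.66 and -6.56 in control, -6.70, -4.94 and -5.96 in null and -3.90 and -4.86 in Tbx18VP16 pools, and was well above background on 1, 2 and 2 of these arrays. Control pool 2 was as high as a Tbx18VP16 pool. Tbx18VP16 exceeded null without overlap, by 1.48 ± 0.73 (SE, adjusted p = 0.275), and this difference shrank to 0.17 with normexp. Tbx18VP16 exceeded control with overlap, by 1.65 ± 0.73 (adjusted p = 0.230). Fstl1, which encodes a follistatin-like glycoprotein of mesenchyme, was at 5.78, 4.96 and 5.42 in control, 5.55, 4.34 and 4.48 in null and 4.98 and 5.24 in Tbx18VP16 pools. The groups overlapped, with differences of -0.60 ± 0.39 in null and -0.28 ± 0.41 in Tbx18VP16 pools (adjusted p = 1 and 0.723). The chordin-like antagonist gene Chrdl1 was lower in every null than in any control pool (-0.89 ± 0.32, adjusted p = 0.841, blocked 0.0678), by -0.97, -0.98 and -0.72 in the pairs, and its other probes gave -0.50 and, never above background, -0.41. Grem1, Chrd and Fst, the genes of gremlin, chordin and follistatin, overlapped between null and control, with differences of -0.52 ± 0.71, 0.10 ± 0.35 and -0.52 ± 0.73.

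Of the receptors, Tgfbr3 rose in Tbx18VP16 pools. It encodes betaglycan, a co-receptor that presents TGF-beta 2 and inhibin, and was at -0.61, -1.13 and -0.59 in control, -1.05, -0.95 and -1.30 in null and 0.41 on both Tbx18VP16 arrays. The Tbx18VP16 pools were above all others, and control and null overlapped. The rise was 1.19 ± 0.25 (SE), 2.28-fold, over control (adjusted p = 0.0388, called in 7 of 16 alternatives) and 1.51 ± 0.25, 2.84-fold, over null (adjusted p = 0.0249, called in 12 of 16). The probe covers positions 107535818 to 107535877 of chromosome 5 (mm9, minus strand), and the null difference from control was -0.32 ± 0.26 (adjusted p = 1).

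None of the signalling receptors among the members passed a test. Bmpr2, the BMP type II receptor gene, was at 2.26, 1 and 0.78 in control, 2.47, 1.25 and 0.14 in null and 1.55 and 1.15 in Tbx18VP16 pools, with full overlap. Acvr1, a type I receptor gene for BMPs and activins, was at 2.31, 1.93 and 2.12 in control, 2.02, 1.64 and 1.74 in null and 2.13 and 2.20 in Tbx18VP16 pools. Its null difference was -0.32 ± 0.24 (SE; adjusted p = 1), at -0.29, -0.29 and -0.38 in the pairs, and of its other 2 probes the one well above background gave -0.26. Tgfbr1, the type I TGF-beta receptor gene, was at 1, 1.75 and 1.69 in control, 1.24, 1.88 and 1.82 in null and 1.84 and 1.77 in Tbx18VP16 pools. Null and control overlapped (0.16 ± 0.31, adjusted p = 1), and of the other 3 probes the one above background on all 8 arrays gave 0.33, that on 6 arrays -0.02 and that on none -0.03. The type I BMP receptor genes Bmpr1a and Bmpr1b were 0.89 ± 0.45 and 0.85 ± 0.46 above control in Tbx18VP16 pools, without overlap (adjusted p = 0.284 and 0.316), and -0.03 ± 0.43 and 0.10 ± 0.44 from control in null pools, where the other Bmpr1b probe gave -0.52. Tgfbr2, the type II TGF-beta receptor gene, differed from control by -0.04 ± 0.28 and -0.32 ± 0.28 in null and Tbx18VP16 pools (adjusted p = 1 and 0.538). Its other probe, above background on 4 arrays, gave -0.12 for null, and -1.46 for Tbx18VP16 against control and -1.34 against null, a far larger difference than the brighter probe.

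Of the targets and SMADs, Smad9 was called in Tbx18VP16 against null. It encodes SMAD8, a receptor-activated SMAD of the BMP branch, and was at -1.69, -1.54 and -1.33 in control, -1.99, -1.73 and -2.04 in null and -0.34 and -0.71 in Tbx18VP16 pools. The groups were ordered null, control, Tbx18VP16, without overlap. Tbx18VP16 exceeded null by 1.39 ± 0.24 (SE), 2.63-fold (adjusted p = 0.0258, called in 10 of 16 alternatives), and control by 0.998 ± 0.24 (adjusted p = 0.0543). Null pools differed from control by -0.40 ± 0.23 (adjusted p = 1). The probe is on the plus strand of chromosome 3, from 54605068 to 54605127 in mm9.

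The Id genes encode helix-loop-helix proteins without a DNA-binding part that hold back differentiation, and none of the 4 passed a test. Id1 was at 3, 3.43 and 3.97 in control, 3.1, 3.64 and 3.49 in null and 2.93 and 3.38 in Tbx18VP16 pools, and all groups overlapped. Id2 was nearly level, at 5.20, 5.30 and 5.38 in control, 5.07, 5.38 and 5.09 in null and 5.30 and 5.27 in Tbx18VP16 pools. Its differences from control were -0.12 ± 0.22 (SE) in null and -0.01 ± 0.22 in Tbx18VP16 pools. Id3 was at 6.44, 5.93 and 6.21 in control, 6.51, 5.89 and 5.47 in null and 5.20 and 5.34 in Tbx18VP16 pools, with Tbx18VP16 below all others (-0.92 ± 0.33 against control, adjusted p = 0.149). Id4 was at 1.70, 1.90 and 2.22 in control, 1.64, 1.90 and 1.49 in null and 1.32 and 1.34 in Tbx18VP16 pools, again with Tbx18VP16 lowest (-0.61 ± 0.25, adjusted p = 0.195). Smad6, an inhibitory SMAD gene, was lower in every null than in any control pool (-0.53 ± 0.24, adjusted p = 1, blocked 0.285), and Smad7, the other inhibitory SMAD gene, overlapped (-0.26 ± 0.60).

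The 3 pairs of null and control pools differed in how low the members stood. The median difference of the 35 members was -0.06 in pair 1, -0.05 in pair 2 and -0.50 in pair 3, where 25 were lower and 10 higher, while the median of all genes was 0.04, 0.00 and 0.00. For the 7 targets and SMADs the median was -0.06, 0.00 and -0.73, with 7 of 7 lower in pair 3. The means of all 7 were thus lower in null pools, with a median of -0.26, but 0 were called and the low values came mainly from pair 3. For the 7 secreted modulators the medians were -0.06, -0.56 and -0.94. Pair 3 had 10 ng of input RNA in place of 20 ng and its own slide, and null pool 3 had the highest erythroid, endothelial and epithelial marker signals of all pools. The part of these in the low values of pair 3 was not tested. Across all 3 pairs, 12 members were lower each time and 5 higher each time. The same count over all genes was not made, so this split is not read as a result about the members.

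**Figure D3:**
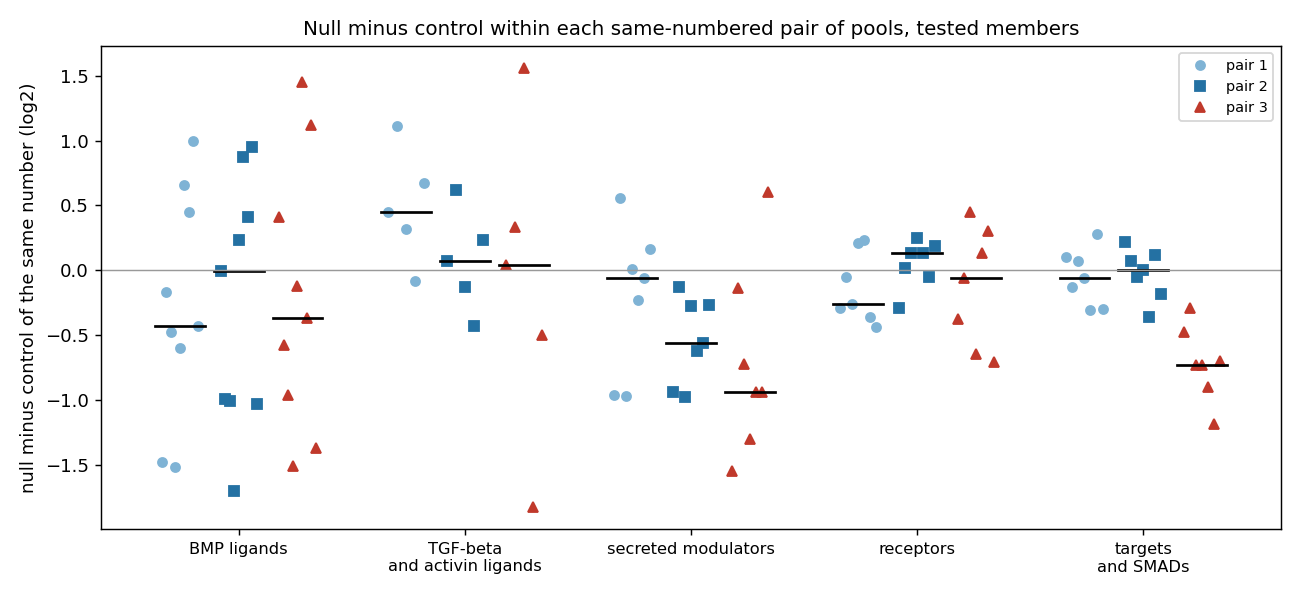
Null minus control within each same-numbered pair of pools (log2) for the 35 tested members, by role. Each point is 1 gene, black lines are medians, and the symbol and colour give the pair. In pair 3 all 7 targets and SMADs lie below 0, with a median of -0.73, against -0.06 and 0.00 in pairs 1 and 2.

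The wider pathway was read through 85 further genes, of which 70 were tested in null against control and 73 in the comparisons with Tbx18VP16. In null pools 0 passed without the pair, and 5 rose with it (blocked background 0.958%). As for all genes, 0 of these 5 calls were left in the blocked fit without pair 1 or without pair 2. Of the 70, 42 had higher and 28 lower means in null pools, with a median of 0.06 against 0.01 over all genes. The 5 called with the pair included the secreted antagonist gene Nbl1 (1.32 ± 0.22 (SE), blocked adjusted p = 0.0434) and Smoc2, the gene of a calcium-binding matrix protein (1.42 ± 0.30, blocked 0.0410). The others were the homeobox gene Dlx5 (1.55 ± 0.52, blocked 0.0316) and the cyclin-dependent kinase inhibitor genes Cdkn1a (2.16 ± 0.67, blocked 0.0421) and Cdkn2b. Cdkn2b, known as a TGF-beta target, was at -7.75, -8.14 and -8.37 in control, -3.76, -3.91 and -5.15 in null and -3.09 and -3.86 in Tbx18VP16 pools. It did not stand well above background in any control pool and did so in all others. Cdkn2b was thus tested only through the pools where it was high, so its calls against control could only be rises. It was at least 4.96-fold higher in null (adjusted p = 0.0675, blocked 0.0208) and at least 8.64-fold higher in Tbx18VP16 pools (adjusted p = 0.00259). Tll1, a gene of a protease that cuts chordin, had a null difference of 1.85 ± 0.49 with no overlap (adjusted p = 0.415, blocked 0.0782). Gdf5, a ligand gene close to Gdf6 and named after its values were seen, differed as much in the other direction. It was at -2.06, -2.33 and -0.54 in control, -3.23, -3.95 and -3.36 in null and -2.96 and -2.50 in Tbx18VP16 pools. Control pools were above all others, with a null difference of -1.87 ± 0.49 (adjusted p = 0.415, blocked 0.101) and -1.17, -1.62 and -2.82 in the pairs.

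In Tbx18VP16 against control, 13 of 73 further pathway genes passed (background 5.34%), 12 higher and 1 lower. Modulators made up 7 of these. Tll1 rose by 3.39 ± 0.52 (SE), Crim1, which encodes a membrane protein that tethers BMPs, by 2.24 ± 0.35, Ltbp1, which encodes a binding protein of latent TGF-beta, by 2.14 ± 0.45, and Smoc2 by 2.02 ± 0.30. The chordin-like gene Chrdl2 rose by 1.93 ± 0.39 and Nbl1 by 1.20 ± 0.27, and Smoc1, the gene most like Smoc2, fell by 2.06 ± 0.26. Smoc2 was at 1.20, 0.39 and 0.50 in control, 2.36, 1.85 and 2.14 in null and 2.75 and 2.68 in Tbx18VP16 pools, and Smoc1 at 0.86, 1 and 0.45, then 0.55, 0.19 and 0.30, then -1.12 and -1.45. These related genes thus lay in opposite orders, with Tbx18VP16 pools highest for Smoc2 and lowest for Smoc1. The receptor gene Amhr2, for anti-Mullerian hormone, also rose, by 3.02 ± 0.56. So did Acvr1c, for activin-like ligands, by at least 2.30-fold, since no control array was well above background. Acvr1c was tested only through the Tbx18VP16 pools, where it was high, so its call could only be a rise. Gdf15, a stress-induced ligand gene, was at least 2.01-fold higher. It was well above background on 0 control, 1 null and 1 of 2 Tbx18VP16 arrays, so this bound rests on weak signal. The response genes Msx2 and Cdkn1a rose by 1.76 ± 0.36 and 3.42 ± 0.71. All 13 adjusted p values lay between 0.00259 and 0.0414.

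Against null, 5 of the 73 passed in Tbx18VP16 pools (background 3.67%). Chrdl2 and Crim1 rose by 2.02 ± 0.39 (SE) and 1.63 ± 0.35. Acvr1c, well above background on 0 null arrays and tested only through the Tbx18VP16 pools, was at least 2.46-fold higher. Smoc1 fell by 1.63 ± 0.26, and Sostdc1, the gene of a BMP and WNT antagonist expressed in kidney epithelium, was at least 4.40-fold lower, being well above background on no Tbx18VP16 array. Sostdc1 was at -5.20, -4.85 and -5.18 in control, -4.70, -3.84 and -3.34 in null and -6.32 and -5.87 in Tbx18VP16 pools. It was highest in null pool 3, where the epithelial markers were highest too, and the part of those cells was not tested. The 16 intracellular SMAD regulators tested had 0 calls in any of these comparisons, with 0, 1 and 1 unadjusted p under 0.05 and 1 with the pair as a block.

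**Figure D4:**
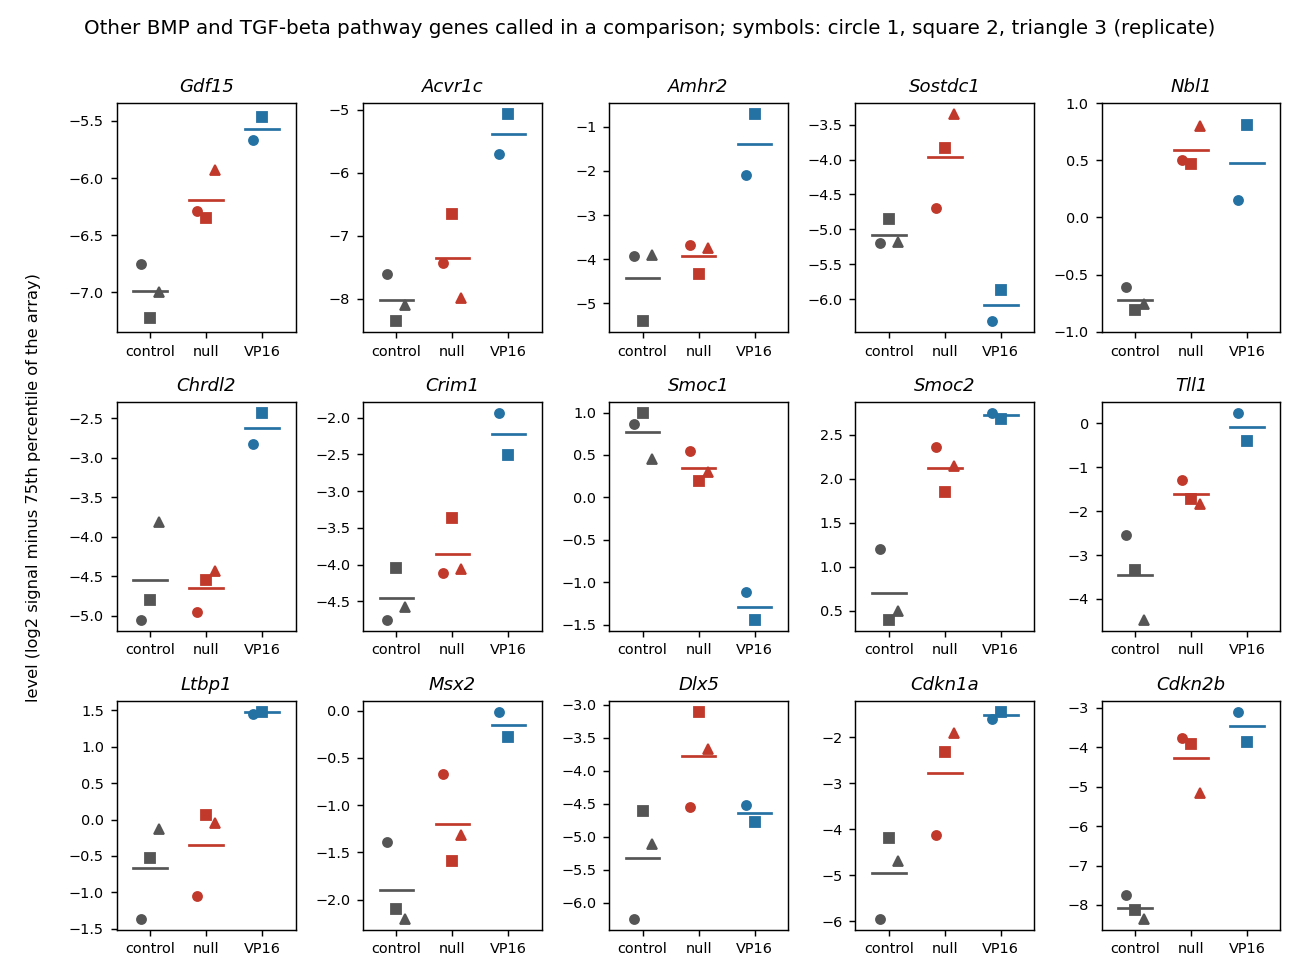
Level on each array (log2 signal minus the array's 75th percentile) of the 15 further pathway genes with an adjusted p under 0.05 in a comparison, including null against control with the pair as a block. Points are pools with the replicate number given by the symbol, lines are group means, and each panel has its own vertical range. Cdkn2b is lowest in the 3 control pools, and Smoc1 lowest and Smoc2 highest in the 2 Tbx18VP16 pools.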

How the data were processed

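Scanner files held spot intensity that Agilent Feature Extraction 10.7.3.1 had corrected for background, per the file headers and the submitters' processing notes. The authors' deposited value table, also intensity on a linear scale with a median of 93.77 in every column, was an alternative, and how it was normalised is not stated in the labels or headers. Spots flagged as outliers were left out, the 4 spots of each probe averaged, and log2 intensity taken minus the array's 75th percentile over the 39429 probes of 60 bases common to both designs. Coordinates of probes are those of the files (mm9). Probes were tested if well above background on 3 of 6 (null against control) or 2 of 8 arrays, and a gene was read by its brightest tested probe. limma 3.58.1 (R 4.3.3) fitted null and control on 6 arrays, and the Tbx18VP16 comparisons as 3 group means on 8 arrays, with two-sided p values adjusted by Benjamini-Hochberg over all genes and a threshold of 0.05. Where a group was well above background on no array, a fold is a lower bound. The fits were also run on simulated data as a self-test. That simulation held no slide or design effect, and a pair effect only for the blocked fit, so it does not cover these in the Tbx18VP16 comparisons.

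The labels do not say what a replicate number stands for. Across genes, how far a pool lay from its group mean was correlated between same-numbered control and null pools (0.827, 0.708 and 0.43), more than between others (-0.751 to 0.315), so the numbers were taken as pairs and the blocked values stand beside the null results they change. Members with a call, with a 2-fold difference without overlap, or among the 12 of highest control signal are given on every array, as are further pathway genes with a call, or up to 4 of smallest p where none was called. The members and lists were chosen with earlier results of these data known. Alternatives covered scaling, quantile normalisation, normexp (offset 50), the value table, filters, probe averaging, blocks, the arrays in the fit and each pool left out.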

Additional observations from a re-analysis of the deposited data

How the results depend on the processing

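No member's difference changed direction among those called or at least 2-fold without overlap, over 20 alternatives in null against control and 16 in each comparison with Tbx18VP16. In null against control the count of members was 0 and became 2 with the replicate block, 1 (Bmp5) in a fit of 3 groups on 8 arrays, and 0 to 5 in the replicate block without 1 pair in turn, an alternative chosen after seeing the data. The pairing changed no other call among the members. Without 1 pool at a time and without the block it stayed at 0. In Tbx18VP16 against control the count of 5 ran from 0 to 10 over the 8 pools left out in turn. In Tbx18VP16 against null it ran from 0 to 6, and was 3 in a fit on the arrays of those groups only. Under the normexp background some dim probes moved by over 1.5 times, with Inhba at 0.25 and Gdf10 at 1.80 in place of 1.92 and 3.48 against control. The scaling to all spots ended the calls of Bmper and Gdf7 against control, and 9 of 27 less changed members changed sign there in each Tbx18VP16 comparison. The call of Gdf7 also ended under quantile normalisation, normexp and the value table, and with no filter on dim probes. That of Tgfbr3 against control ended with no such filter and in a fit on the control and Tbx18VP16 arrays only. The count of members called was within 1.5 times the reported one under every scaling, filter and probe rule, although the members called were not always the same. Over all genes, null against control had 0 calls, 189 with the replicate block, 0, 0 and 737 in that fit without pair 1, 2 and 3, 71 on 8 arrays, 14 with every array of a group above background and 6 with the slide as a block, while normexp gave 626 in place of 1101 for Tbx18VP16 against control and 404 in place of 757 against null, where the fit on those groups only gave 432. Without 1 pool, the calls over all genes ran from 39 to 1921 against control and from 0 to 818 against null. Signal near background limits Bmp3, Gdf6, Gdf10, Inhba and Nog.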
